A study of Mus musculus with 16 samples.

Results

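Heat shock proteins and protein-folding chaperones were read on BeadArrays of liver RNA from old male C57BL/6 mice. They were taken by gene name (the HSP, DNAJ, CCT, PDIA and BAG families with Tcp1, Calr, Canx, Hsf1 and Stip1), and 115 of the 25697 probes on the array, for 85 genes, carried such a name. A probe was kept when it was detected (detection p under 0.05) on every array of at least 1 diet group, which left 70 probes for 56 genes among 11143 probes for 7816 genes. By the compartment in which the protein works, 43 of these probes (35 genes) belonged to the cytosol and nucleus, 13 (11 genes) to the endoplasmic reticulum (ER), 11 (8 genes) to the mitochondria and 3 (2 genes, Dnajc4 and Dnajc16) to none of these.

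The mice were bought at 104 weeks of age, spent a month on the purified AIN-93G diet and were then kept on their diets for 17 weeks. In the EOW group (5 mice) the diet held 1% metformin every other week, in the 2WM group (4 mice) it held 1% metformin for 2 consecutive weeks of each month, and the SD group (4 mice) received AIN-93G alone. All mice were killed without fasting, EOW and 2WM mice while on metformin. There were 16 arrays for the 13 mice, since RNA of 1 animal per diet was read a second time, and such repeats were averaged, so that each mouse counted once. The p-values measure the spread between the mice of these small groups.

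Molecular chaperones bind unfolded proteins and help them to fold, and in the cytosol they work as HSP70 with its J-domain partners, as HSP90, and as the ring-shaped CCT chaperonin. The ER holds its own set, which folds proteins of the secretory pathway, a large load in the hepatocyte, and the unfolded protein response raises these genes when folding falls behind. The mitochondrion has an HSP70 and an HSP60/HSP10 pair of its own, and many cytosolic chaperone genes are targets of heat shock factor.

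Promoter sequences are shown to describe the control elements of these genes. The choice by name did not read sequence. The elements searched belong to the heat shock and ER stress responses, which are known to act on such genes. Their presence here is therefore a description and not a test. RefSeq promoter windows (build GRCm38.p6) were found for 47 of the 56 genes, each from 250 bases upstream of a start site to 50 bases downstream. Only the 250 upstream bases were searched. The ER stress response element is written CCAAT, 9 bases of any kind, then CCACG, and was searched on both strands. It occurred in 37 of 32851 promoter windows (0.113%), and in 5 of the 11 ER genes (45.5%), against 0 of 28 cytosolic and nuclear genes and 0 of 6 mitochondrial genes with a window. The 5 genes were Hspa5, Hsp90b1, Calr, Pdia6 and Dnajc3, and Hsp90b1 held 2 matches. The share of 0.113% counts windows, whereas those of the compartments count genes with a match in any of their windows. The 47 genes had 60 windows, so these shares are not in like units. The same holds for the heat shock element below. Each stretch is given 5′ to 3′ on the strand of its gene with the letters of the element in capitals, so that CGTGG and ATTGG mark a match on the opposite strand.
Hspa5 (chr2:34772007-34772061, plus strand): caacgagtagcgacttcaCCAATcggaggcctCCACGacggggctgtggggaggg
Hsp90b1 (chr10:86705515-86705569, minus strand): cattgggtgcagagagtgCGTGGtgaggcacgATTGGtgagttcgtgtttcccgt
Hsp90b1 (chr10:86705620-86705674, minus strand): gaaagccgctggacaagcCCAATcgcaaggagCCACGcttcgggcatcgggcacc
Calr (chr8:84847057-84847111, minus strand): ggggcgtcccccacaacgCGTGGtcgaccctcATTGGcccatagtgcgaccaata
Pdia6 (chr12:17266473-17266527, plus strand): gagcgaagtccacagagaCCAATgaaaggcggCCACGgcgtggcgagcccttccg
Dnajc3 (chr14:118937809-118937863, plus strand): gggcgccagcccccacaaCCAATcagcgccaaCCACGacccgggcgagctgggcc

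The heat shock element was searched on both strands as 3 alternating units, GAA, TTC and GAA, with 2 bases of any kind between them. It occurred in 153 windows (0.466%), among them those of Dnajb6, a J-domain partner of HSP70, and of Hspd1 and Hspe1, which encode mitochondrial HSP60 and HSP10. Hspd1 and Hspe1 read the same stretch on opposite strands, in which overlapping matches made 4 units. The shorter pairs, GAA then TTC and TTC then GAA with the same spacing, which lie within the motif of 3 units, stood in 6.69% and 7.17% of all windows, and each was present in 7 of the 47 genes. The letters of the units are in capitals.
Dnajb6 (chr5:29735834-29735882, plus strand): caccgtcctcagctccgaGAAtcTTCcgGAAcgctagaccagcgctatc
Hspe1 (chr1:55088041-55088094, plus strand): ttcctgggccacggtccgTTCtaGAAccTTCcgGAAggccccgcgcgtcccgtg
Hspd1 (chr1:55088041-55088094, minus strand): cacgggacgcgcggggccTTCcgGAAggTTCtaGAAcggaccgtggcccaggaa

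The median signal of the arrays ranged from 127.2 to 184.9, and 11457 to 12953 probes were detected per array. Some results below depended on how the arrays were scaled. Levels are given on a log2 scale on which 0 is the mean of all probes on the array, so that 1 unit is about a doubling of signal, and levels of different probes are not compared with each other. The hepatocyte markers Apoa1, Ttr, Cps1 and Hnf4a (4 of the 6 listed were tested) had a median level of 5.93 to 6.78 in every mouse. EOW mouse 4 stood apart: it correlated with the other mice at 0.841 to 0.888 over all probes tested, against 0.95 to 0.991 among the other 12 mice. Its 6 detected T and NK cell markers (of 12 listed) had a median of 3.7, against -0.52 to 0.04 in the others. The endothelial markers were divided. EOW mouse 4 was the highest of all mice for Stab2 (2.54), Lyve1 (2.24) and Pecam1 (1.25) and the lowest for Kdr (-0.81). The remaining endothelial marker lay within the range of the other mice. Results that rest on this mouse are given with and without it, and the part of other cell types in them was not tested. In whole liver, fewer cells of a type and less RNA per cell cannot be told apart.

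No chaperone probe passed an adjusted p of 0.05 in any of the 3 comparisons. The same was true of all probes tested, since limma with Benjamini-Hochberg adjustment called 0% of the 11143 probes in EOW against SD, 0% in 2WM against SD and 0% in EOW against 2WM. The counts below therefore use an unadjusted p under 0.05, and each is set beside the share of all probes past the same limit. In EOW against SD, 8 of 70 chaperone probes (11.4%) were higher and 5 (7.14%) were lower, against 5.59% and 8.25% of all probes. In 2WM against SD, 2 were higher and 2 were lower (2.86% each), against 2.23% and 3.71% of all probes. In EOW against 2WM, 6 (8.57%) were higher and 3 (4.29%) were lower, against 5.26% and 5.4% of all probes. The widest gap to the background was on the higher side of EOW against SD. Its 8 probes included both probes of Hspa2, the dimmer of which passed the detection filter only through the EOW group in which it was high. Dnajc8, also among them, did not pass the filter in the SD group. Read as 1 value per gene, 6 of 56 genes (10.7%) were higher, against 6.38% of all genes. The count of 8 probes was 4 without SD mouse 2 or EOW mouse 1 and 5 without SD mouse 3, and it was 3 when arrays were centred on their medians.

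Few probes separated the groups without overlap. At 2 of the 70 probes the lowest EOW mouse was above the highest SD mouse (2.86%, against 1.75% of all probes), namely for Cct8 and for the dimmer probe of Hspa2, which passed the detection filter only through the EOW group in which it was high. All EOW mice lay below all SD mice at 2 probes (against 2.4% of all probes), for Bag4 and the dimmer probe of Dnajc19. In 2WM against SD, 2 probes lay wholly above (Hspa9 and Cct3, against 2.16% of all probes) and 2 wholly below (the dimmer probes of Dnajb4, a J-domain partner of HSP70, and Dnajc19, against 3.66%). In EOW against 2WM, 0 of 70 lay wholly above (against 1.99% of all probes) and 1 wholly below (Calr, 1.43%, against 1.97%).

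By compartment, the fold changes of the cytosolic and mitochondrial probes spread around 0, while those of the ER probes were mostly negative in both comparisons of EOW mice. In EOW against 2WM, 11 of the 13 ER probes (84.6%) had a negative log2 fold change, with a median of -0.109, whereas 49.3% of all probes were negative with a median of 0.003. Read as 1 value per gene, 9 of 11 ER genes were negative with a median of -0.328. In EOW against SD, 11 of 13 ER probes were again negative (median -0.088), against 55.2% of all probes (median -0.026), while in 2WM against SD 4 of 13 were negative (median 0.037), against 56.8% of all probes. These comparisons share groups and are not independent of each other. The ER probe of Hspa5 passed the detection filter only through the 2WM and SD groups. The medians of the cytosolic and nuclear probes were 0.005 in EOW against SD, 0.01 in 2WM against SD and -0.022 in EOW against 2WM, and those of the mitochondrial probes were -0.047, 0.087 and 0.033 in the same order.

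The ER count depended on EOW mouse 4 and, in 2WM against SD, on scaling. Without that mouse, 8 of 13 ER probes were negative in EOW against 2WM (median -0.055; 7 of 11 genes, median -0.112) and 7 of 13 in EOW against SD (median -0.018). With arrays centred on their medians, 10 of 13 were negative in EOW against 2WM (median -0.064) and 11 of 13 in EOW against SD (median -0.276), but the sign in 2WM against SD turned, with 9 of 13 negative (median -0.153). That scaling moved the median of all probes to -0.088 in EOW against SD, -0.121 in 2WM against SD and 0.03 in EOW against 2WM. With array weights, which gave EOW mouse 4 the lowest weight (0.16), 8 of 13 ER probes were positive in EOW against SD (median 0.081).

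Per mouse, the spread of the ER set was widest within the EOW group. Taking each gene relative to its SD mean, the median over the 11 ER genes was -0.23, -0.02, 0.34, -0.57 and -0.16 in EOW mice 1 to 5, against 0.04, 0.02, 0.07 and 0 in the 2WM mice and -0.1, -0.1, 0.16 and 0.06 in the SD mice. EOW mouse 3 was thus the highest of all 13 mice and EOW mouse 4 the lowest, and the 4 2WM mice lay close together. Over the 8 mitochondrial genes EOW mouse 5 stood highest, at 0.39, and the other 12 mice lay between -0.12 and 0.18. The median over the 8 CCT genes ranged over -0.03 to 0.18 in EOW mice, 0.02 to 0.11 in 2WM mice and -0.08 to 0.08 in SD mice. Among these genes, Cct6b passed the detection filter only through the EOW group, and Cct5 only through the 2WM and SD groups.

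**Figure D1:**
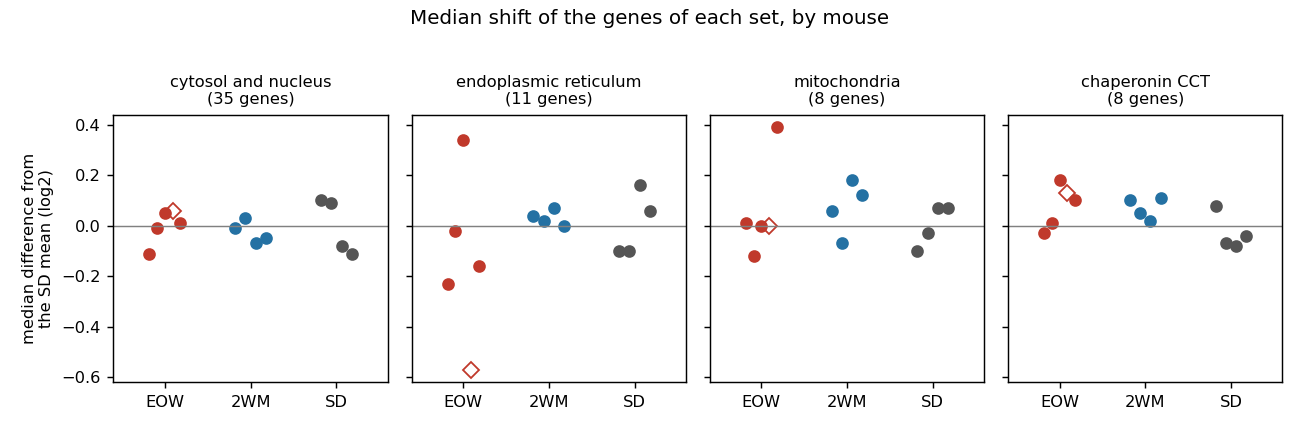
Median over the genes of each set, relative to the SD mean of each gene (vertical axis, log2 units), for each mouse by diet group. Each point is a mouse and the open diamond is EOW mouse 4. The ER panel spans -0.57 (EOW mouse 4) to 0.34 (EOW mouse 3), and the 4 2WM mice lie between 0 and 0.07.

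Among ER chaperones, the HSP70 of the ER lumen, Hspa5 (BiP, the master chaperone that also holds the stress sensors inactive), had levels of 0.29, 0.26, 1.09, -0.81 and 0.07 in EOW mice, against 0.38, 1.16, 1.13 and 0.3 in 2WM mice and 0.45, 0.13, 0.09 and 0.24 in SD mice. Mice 2 and 3 of 2WM and EOW mouse 3 were high, EOW mouse 4 was the lowest, and the groups overlapped. The log2 fold change was -0.05 ± 0.306 (SE) in EOW against SD, 0.52 ± 0.322 in 2WM against SD (adjusted p = 0.893, limma) and -0.57 ± 0.306 in EOW against 2WM (adjusted p = 0.538). Without EOW mouse 4 the EOW values became 0.2 against SD and -0.32 against 2WM. The HSP90 of the ER, Hsp90b1 (GRP94), averaged 4.96 ± 0.5 in EOW mice (SD, n = 5), 5.29 ± 0.15 in 2WM mice and 4.99 ± 0.21 in SD mice (n = 4 each). Its highest level, 5.74, and its lowest, 4.42, both belonged to EOW mice, 3 and 4, so the EOW group spanned the other groups. The 2WM against SD value of 0.3 ± 0.226 turned to -0.01 when arrays were centred on their medians.

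Pdia6 and Dnajb9 gave the largest EOW to 2WM differences in the ER for their error. Pdia6, a protein disulfide isomerase that rearranges disulfide bonds, had levels of 0.17, 0.65, 1, -0.18 and 0.01 in EOW mice, against 0.81, 1.14, 1.05 and 1.02 in 2WM mice and 0.69, 0.41, 0.72 and 0.84 in SD mice. Only EOW mouse 3 reached the 2WM range. The log2 fold change in EOW against 2WM was -0.67 ± 0.204 (unadjusted p = 0.0058, adjusted p = 0.284, limma), the exact two-sided permutation p was 0.0317, and the value without EOW mouse 4 was -0.55 (unadjusted p = 0.0114 in the refitted model). Dnajb9 (ERdj4), a J-domain partner of Hspa5 and an unfolded protein response target, had levels of 3.12, 2.63, 2.91, 2.58 and 2.74 in EOW mice, against 3.4, 3.77, 3.72 and 3.03 in 2WM mice and 3.82, 2.99, 2.89 and 2.63 in SD mice. EOW mouse 1 alone lay above the lowest 2WM mouse, and SD mouse 1 was the highest of all. Its EOW against 2WM value was -0.69 ± 0.224 (unadjusted p = 0.00932, adjusted p = 0.32; exact permutation p = 0.0317), and -0.63 without EOW mouse 4. For both genes the 2WM mean lay above that of SD and the EOW mean below it, with unadjusted p-values of 0.115 to 0.225.

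Calr encodes calreticulin, the lectin chaperone that binds calcium and newly made glycoproteins. Its levels were 1.03, 1.56, 1.54, 0.49 and 0.98 in EOW mice, against 2.09, 1.56, 1.81 and 1.78 in 2WM mice and 1.52, 2.27, 3.2 and 1.26 in SD mice. Every EOW mouse lay below every 2WM mouse, EOW mouse 2 and 2WM mouse 2 by less than the rounding, and SD mouse 3 was far above the rest. The log2 fold change was -0.94 ± 0.34 in EOW against SD (unadjusted p = 0.0161, adjusted p = 0.265, limma; exact permutation p = 0.0952) and -0.69 ± 0.34 in EOW against 2WM (adjusted p = 0.502; exact permutation p = 0.0159, the smallest that 5 against 4 mice allow). Without EOW mouse 4 these were -0.79 and -0.54, and without SD mouse 3 the first was -0.56. The other ER lectin chaperone gene, Canx, was detected on 0 of 16 arrays.

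Dnajb12, a membrane-bound J-domain protein of the ER, was the only ER chaperone with an unadjusted p under 0.05 in 2WM against SD. It averaged 0.46 ± 0.17 in EOW mice (SD, n = 5), 0.42 ± 0.14 in 2WM mice and 0.71 ± 0.17 in SD mice (n = 4 each). It gave -0.25 ± 0.113 in EOW against SD (adjusted p = 0.355, limma) and -0.29 ± 0.119 in 2WM against SD (adjusted p = 0.806), and SD mouse 1 (0.49) lay among the treated mice. For the disulfide isomerase Pdia4, EOW mouse 4 (1.38) and EOW mouse 5 (1.89) were the lowest of all mice. Its value in EOW against SD was -0.42 ± 0.301 (adjusted p = 0.54) and moved to -0.19 without mouse 4, and that in EOW against 2WM was -0.35 and moved to -0.11. Pdia3, the isomerase that serves glycoproteins with calreticulin, gave -0.07 in EOW against SD, 0.04 in 2WM against SD and -0.11 in EOW against 2WM, and Dnajc3, which binds unfolded proteins and restrains the kinase PERK, -0.02, 0.03 and -0.05 in the same order, with errors of 0.159 to 0.2.

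**Figure D2:**
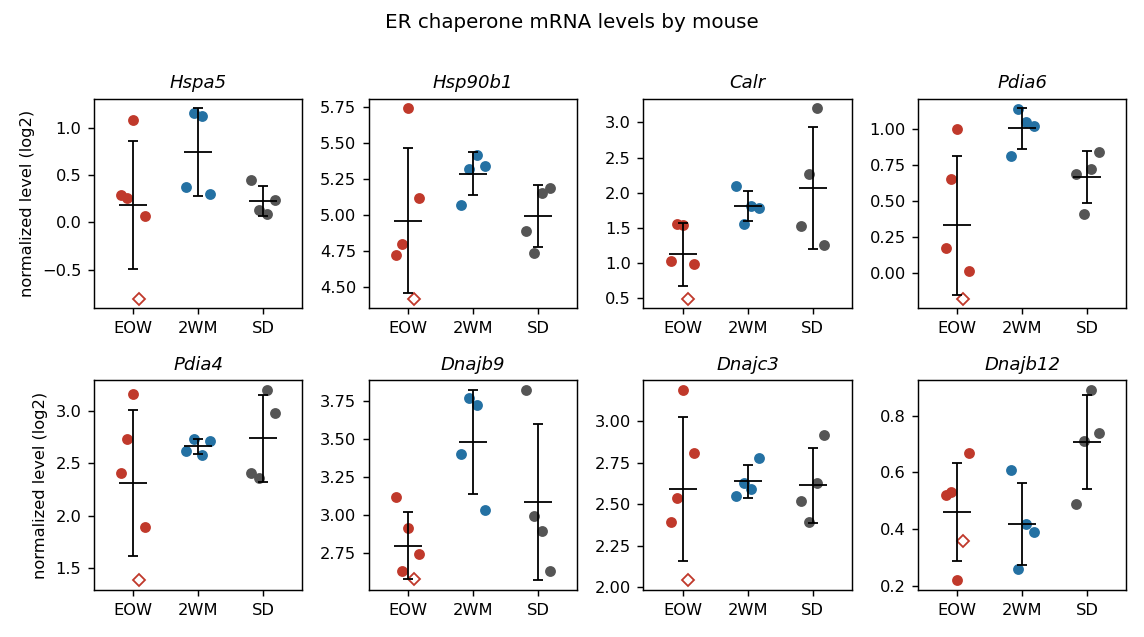
Level of 8 ER chaperone genes (vertical axis, log2 scale, 0 = mean of all probes on the array) in each mouse by diet group. Points are mice, the open diamond is EOW mouse 4, and bars are group means ± SD (5 EOW, 4 2WM and 4 SD mice). Pdia6 and Dnajb9 overlap between EOW and 2WM by 1 EOW mouse each, and Calr does not overlap.

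Genes of the ER outside the chaperone families were set beside these. Of 31 genes listed for ER folding and quality control, 23 were tested, and 19 of them were negative in EOW against 2WM, with a median of -0.211, against 46.9% of all genes (median 0.014). It was 17 of 23 without EOW mouse 4 (median -0.194). In 2WM against SD, 16 of 23 were positive (median 0.151), and in EOW against SD 11 were positive and 12 negative. At an unadjusted p under 0.05, 3 were lower and 0 higher in EOW against 2WM, against 5.46% and 5.69% of all 7816 genes. The 3 were Ero1b, an oxidase that recharges disulfide isomerases (-0.73 ± 0.282), Sil1, the nucleotide exchange factor of Hspa5 (-0.33 ± 0.143), and the prolyl isomerase Fkbp2 (-0.25 ± 0.11), with adjusted p-values of 0.388 to 0.449. In EOW against SD 2 were lower and 0 higher (7.73% and 6.38% of all genes): Hyou1, an HSP110-like partner of Hspa5, gave -0.33 ± 0.108 (adjusted p = 0.238) and Edem1, which sends misfolded glycoproteins to degradation, -0.34 ± 0.118 (adjusted p = 0.258). In 2WM against SD 1 was lower and 1 higher (3.33% and 2.34% of all genes): Edem1 gave -0.27 ± 0.124 (adjusted p = 0.831) and Selenok, a selenoprotein of the ER membrane, 0.62 ± 0.199 (adjusted p = 0.678). Median centring turned the sign of the list's median in 2WM against SD, with 14 of 23 negative (median -0.062), and left 18 of 23 negative in EOW against SD (median -0.204).

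The sensors and transcription factors of the unfolded protein response were evenly divided, with 4 positive and 4 negative of 8 tested (11 listed) in each of the 3 comparisons. Xbp1, whose spliced form drives ER chaperone genes, gave 0.2 ± 0.16 in EOW mice and 0.13 ± 0.169 in 2WM mice, each against SD, and the probe does not separate spliced from unspliced mRNA. Atf4 gave 0.1 ± 0.13 and 0.13 ± 0.137 in the same order. The value farthest from 0 for its error was that of Creb3l3 (CREBH, a liver transcription factor anchored in the ER), at -0.59 ± 0.154 in EOW against SD (unadjusted p = 0.00214, adjusted p = 0.179, limma). Its levels were 2.25, 2.3, 1.98, 1.93 and 1.87 in EOW mice and 2.58, 2.44, 3.14 and 2.47 in SD mice, with no overlap.

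Grouped by the element printed above, 12 tested genes of the whole array held an ER stress response element, 5 of them the chaperones shown. Creld2, Ero1b and Syvn1 were in the ER folding list above, so most of this group repeats values already counted. In EOW against 2WM, 10 of the 12 were negative, with a median of -0.296, against 47.4% of the 6418 tested genes with a promoter window (median 0.011). In 2WM against SD, 9 were positive (median 0.236) and in EOW against SD 8 were negative (median -0.041). Without EOW mouse 4, 9 of 12 were negative in EOW against 2WM (median -0.221), and the median of EOW against SD turned to 0.096. With median centring, 9 of 12 were negative in EOW against 2WM (median -0.228) and 9 in EOW against SD (median -0.204), while 7 were positive in 2WM against SD (median 0.048). The lowest values in EOW against 2WM were those of Ero1b and Creld2 (both -0.73), Calr (-0.69), Pdia6 (-0.67) and Hspa5 (-0.57), and those above 0 were Acnat2 (0.59) and Pan2 (0.11). Of the genes not counted before, Acnat2 and Pan2 were thus positive, and Alg12 (-0.07) and Hnrnpa3 (-0.12) negative. The 28 tested genes with a heat shock element of 3 units had medians of -0.051 in EOW against SD, -0.009 in 2WM against SD and -0.027 in EOW against 2WM.

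In the cytosol, the HSP70 genes Hspa8 and Hspa2 had EOW means above those of both other groups. Hspa8, the constitutive HSP70, had levels of 7.09, 6.44, 6.24, 6.4 and 6.51 in EOW mice, against 6.38, 6.21, 6.12 and 6.33 in 2WM mice and 6.15, 6.49, 5.98 and 6.34 in SD mice. EOW mouse 1 was far above the rest and the other mice overlapped. The value in EOW against SD was 0.29 ± 0.157 (adjusted p = 0.415, limma) and became 0 with median centring. Hspa2, an HSP70 best known from the testis, had levels of 0.89, 1.17, 1.11, 1.54 and 1.53 in EOW mice, against 0.76, 1.05, 0.24 and 0.6 in 2WM mice and 0.9, 0.83, -0.12 and 0.99 in SD mice. EOW mice 2 to 5 lay above all 8 other mice, and SD mouse 3 was the lowest. It gave 0.6 ± 0.234 in EOW against SD (adjusted p = 0.298) and 0.59 ± 0.234 in EOW against 2WM (adjusted p = 0.398), and the first was 0.34 without SD mouse 3. Over the family, ER and mitochondrial members included, 7 of 9 probes were positive in EOW against SD (median 0.227), but 3 of 9 with median centring. These probes included the dimmer one of Hspa2, which passed the detection filter only through the EOW group in which it was high. Hspa1a, the heat-inducible HSP70, was detected on 2 of 16 arrays and was not tested.

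The heat-inducible partners of HSP70 were spread widely within the groups. Hsph1 (HSP110), a nucleotide exchange factor, had levels of 1.02, 1.01, 1.65, 1.67 and 0.47 in EOW mice, against 0.9, 2.02, 1.49 and 1.27 in 2WM mice and 1.99, 1.93, 1.62 and 0.87 in SD mice. High and low mice were present in every group, and the value in EOW against SD was -0.43 ± 0.3. Dnajb1 (HSP40), the J-domain partner of HSP70 in the heat shock response, averaged 2.29 ± 0.56 in EOW mice (SD, n = 5), 2.19 ± 0.14 in 2WM mice and 2.62 ± 0.37 in SD mice (n = 4 each). It gave -0.33 ± 0.253 in EOW against SD, -0.43 ± 0.266 in 2WM against SD and 0.1 ± 0.253 in EOW against 2WM, and without EOW mouse 4 the first became -0.52 and the last -0.09. Hsp90aa1, the inducible cytosolic HSP90, lay between -0.63 and -0.18 in all mice, with fold changes of -0.05, 0.02 and -0.07 in EOW against SD, 2WM against SD and EOW against 2WM, and Stip1, the adaptor that links HSP70 to HSP90, gave -0.23, -0.15 and -0.08 in the same order.

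Bag3, a co-chaperone that carries HSP70 clients to autophagy, had levels of 3.02, 3.46, 3.13, 3.67 and 3.45 in EOW mice, against 3.73, 3.6, 3.56 and 3.49 in 2WM mice and 4.05, 4.75, 3.15 and 3.86 in SD mice. All SD mice but mouse 3 lay above all treated mice. It gave -0.6 ± 0.245 in EOW against SD (adjusted p = 0.306, limma; exact permutation p = 0.0952), or -0.34 without SD mouse 2, and -0.36 ± 0.258 in 2WM against SD. Bag4, another BAG family regulator of HSP70, had levels of 1.46, 1.6, 1.69, 1.31 and 1.65 in EOW mice, against 1.78, 1.75, 2.04 and 1.74 in SD mice, with no overlap. Its value was -0.28 ± 0.123 (adjusted p = 0.336; exact permutation p = 0.0159), and -0.22 without EOW mouse 4. Of the small heat shock proteins, which hold unfolded proteins without ATP, Hspb1 had levels of 0.4, 1.33, 1.41, 0.8 and 0.32 in EOW mice and 1.09, 1.58, 1.3 and 1.39 in 2WM mice. EOW mice 1, 4 and 5 lay below every 2WM mouse and the other two within their range. The difference was -0.49 ± 0.215 (adjusted p = 0.448).

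The CCT chaperonin, which folds actin and tubulin, had 10 tested probes for 8 genes. Cct8 had levels of 3.42, 3.45, 3.42, 3.37 and 3.36 in EOW mice, against 3.4, 3.43, 3.37 and 3.29 in 2WM mice and 3.27, 3.05, 3.12 and 3.32 in SD mice. All EOW mice and 3 of the 4 2WM mice lay above all SD mice. The differences were small, 0.21 ± 0.0755 in EOW against SD (adjusted p = 0.259, limma; exact permutation p = 0.0159) and 0.18 ± 0.0796 in 2WM against SD (adjusted p = 0.82), and with median centring they were 0.05 and -0.03. Tcp1, another subunit of the ring, had levels of 3.02, 3.19, 3.39, 3.26 and 3.66 in EOW mice, 3.06, 2.94, 2.75 and 2.89 in 2WM mice and 3.3, 2.99, 3.17 and 3.31 in SD mice at its brighter probe. Only EOW mouse 1 overlapped with the 2WM mice. That probe gave 0.4 ± 0.125 in EOW against 2WM (unadjusted p = 0.00768, adjusted p = 0.308), whereas the dimmer probe of the same gene gave -0.12 ± 0.144. In 2WM against SD, 9 of 10 CCT probes were positive (median 0.036), but 4 of 10 with median centring.

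Probes of the same gene often differed in this way. Of 13 genes with several tested probes, the signs differed between probes for 5 in EOW against SD, 6 in 2WM against SD and 3 in EOW against 2WM. Dnajc2, a J-domain protein of the ribosome, is the case with the widest gap: EOW mouse 4 had a level of -1.63 at the brighter probe, against a mean of 0.86 in the other mice, while at the dimmer probe it had 0.2, the highest of all 13 mice. Dnajc8, a nuclear J-domain protein linked to splicing, gave 0.3 ± 0.136 in EOW against SD (adjusted p = 0.352, limma) and 0.19 without EOW mouse 4.

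**Figure D3:**
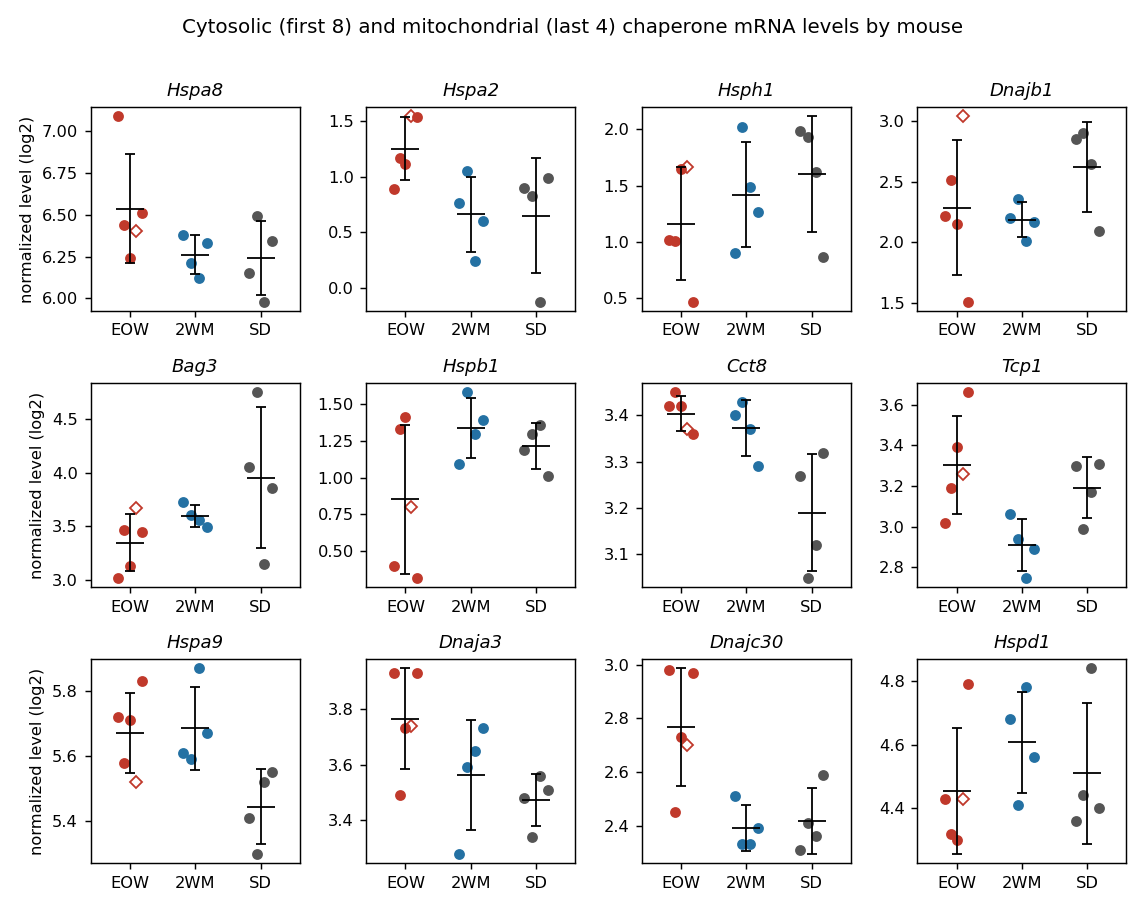
Level of 12 cytosolic and mitochondrial chaperone genes (vertical axis, log2 scale, 0 = mean of all probes on the array) in each mouse by diet group, at the brightest probe of each gene. Points are mice, the open diamond is EOW mouse 4, and bars are group means ± SD (5 EOW, 4 2WM and 4 SD mice). Cct8 lies at 3.36 to 3.45 in EOW mice and 3.05 to 3.32 in SD mice, and Dnajc30 at 2.45 to 2.98 in EOW mice and 2.31 to 2.59 in SD mice.

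In the mitochondria, Hspa9 (mortalin), the HSP70 of the matrix that also pulls in imported proteins, had levels of 5.72, 5.58, 5.71, 5.52 and 5.83 in EOW mice, against 5.61, 5.59, 5.87 and 5.67 in 2WM mice and 5.41, 5.3, 5.52 and 5.55 in SD mice. All 2WM mice and 4 of the 5 EOW mice lay above all SD mice. It gave 0.23 ± 0.0937 in EOW against SD (adjusted p = 0.311, limma) and 0.24 ± 0.0988 in 2WM against SD (adjusted p = 0.803; exact permutation p = 0.0286, the smallest that 4 against 4 mice allow). Both signs turned with median centring, to -0.03 and -0.09. Dnaja3 (TID1), the J-domain partner of Hspa9, gave 0.29 ± 0.114 in EOW against SD (adjusted p = 0.298) and 0.09 ± 0.121 in 2WM against SD. With median centring the first was 0.11 and the second turned to -0.14.

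Dnajc30, a mitochondrial J-domain protein of the inner membrane, was the one chaperone with an unadjusted p under 0.01 against both other groups at its brightest probe. Its levels were 2.98, 2.45, 2.73, 2.7 and 2.97 in EOW mice, against 2.51, 2.33, 2.33 and 2.39 in 2WM mice and 2.31, 2.41, 2.36 and 2.59 in SD mice. All EOW mice but mouse 2 lay above the 8 other mice. It gave 0.35 ± 0.112 in EOW against SD (unadjusted p = 0.00867, adjusted p = 0.234, limma) and 0.38 ± 0.112 in EOW against 2WM (unadjusted p = 0.00522, adjusted p = 0.283), with an exact permutation p of 0.0317 in each. The values were 0.36 and 0.39 without EOW mouse 4, and 0.21 (unadjusted p = 0.0476) and 0.41 with median centring.

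The HSP60 and HSP10 genes, Hspd1 and Hspe1, whose products form the folding chamber of the matrix, gave -0.06 ± 0.13 and -0.09 ± 0.177 in EOW against SD, and 0.1 ± 0.137 and 0.17 ± 0.186 in 2WM against SD. The last 2 turned to -0.18 and -0.03 with median centring. Dnajc19, a subunit of the import motor of the inner membrane, was named after its values were seen, because its dimmer probe had the smallest unadjusted p of any chaperone probe. That probe read 0.58, 0.55, 0.48, 0.41 and 0.39 in EOW mice, 0.3, 0.24, 0.29 and 0.44 in 2WM mice and 0.73, 0.79, 0.85 and 0.68 in SD mice. Every treated mouse lay below every SD mouse. The difference was -0.28 ± 0.0758 in EOW against SD (adjusted p = 0.195) and -0.44 ± 0.0799 in 2WM against SD (unadjusted p = 0.000102, adjusted p = 0.227), but the brighter probe of the gene gave -0.05 ± 0.136 and -0.08 ± 0.143.

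Of 15 other genes listed for mitochondrial folding, import and proteolysis, 11 were tested, and 8 were negative in EOW against SD (median -0.029), 5 in 2WM against SD and 7 in EOW against 2WM. Phb2, a prohibitin scaffold of the inner membrane, gave 0.26 ± 0.101 in EOW against SD (adjusted p = 0.294, limma) and 0.35 ± 0.101 in EOW against 2WM (adjusted p = 0.269), and all 5 EOW mice (3.18 to 3.64) lay above all 2WM mice (2.91 to 3.13). Clpx, the unfoldase of a matrix protease, gave -0.77 ± 0.348 in EOW against 2WM (adjusted p = 0.463), and Timm44, of the import motor, -0.29 ± 0.0999 in 2WM against SD (adjusted p = 0.708), with all 2WM mice (0.77 to 1) below all SD mice (1.05 to 1.43). No other gene of the list had an unadjusted p under 0.05. Of 27 cytosolic co-chaperones and prefoldin subunits listed, 22 were tested, with 10 positive and 12 negative in EOW against SD. At an unadjusted p under 0.05, 2 were higher and 2 lower, against 6.38% and 7.73% of all genes. Nudc (0.21 ± 0.0894) and Ahsa2 (-0.25 ± 0.105) were among them, with adjusted p-values (limma) of 0.321 and 0.32. The others were Fkbp5 and Fkbp4, immunophilins of the HSP90 steroid receptor complex, which had opposite signs. Ppid, another immunophilin of the list, gave -0.05 ± 0.138. Fkbp5, a glucocorticoid target, had levels of 2.32, 0.32, 0.93, 1.34 and 2.6 in EOW mice and 0.33, 0.33, 0.75 and 0.73 in SD mice, a difference of 0.97 ± 0.384 (adjusted p = 0.298). Fkbp4 had levels of 3.04, 3.29, 3.83, 2.7 and 2.68 in EOW mice and 3.49, 3.8, 4.14 and 3.6 in SD mice, a difference of -0.65 ± 0.224 (adjusted p = 0.252). EOW mice 1, 4 and 5 were the 3 highest of these for Fkbp5 and the 3 lowest for Fkbp4.

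Across the 13 mice, 8 pairs of genes were related to each other by a permutation test, with p-values adjusted over the 8. Values were permuted over all mice without regard to diet. Differences between the diet groups therefore enter r, rho and their p-values, and were not separated from relations between mice of the same diet. Hsph1 and Hsp90aa1 moved together (r = 0.831, adjusted permutation p = 0.00528; rho = 0.841, adjusted permutation p = 0.00568), and r was 0.83 without the 2 mice farthest from the median of Hsph1. Hsp90aa1 was read at the dim probe described above. Hsph1 and Dnajb1 gave r = 0.71 (adjusted permutation p = 0.00987) and rho = 0.643 (adjusted permutation p = 0.081), and r was 0.507 without 2 mice. Hsph1 and the cold-inducible gene Cirbp ran in opposite directions, with r = -0.719 (adjusted permutation p = 0.00987) and rho = -0.604 (adjusted permutation p = 0.0821), and r was -0.506 without the 2 mice. Hspa5 and Hsp90b1 gave r = 0.785 (adjusted permutation p = 0.0086) and rho = 0.582 (adjusted permutation p = 0.0821), with r = 0.669 without EOW mouse 4. Hspa5 and Pdia4 gave r = 0.62 (adjusted permutation p = 0.0367) but 0.28 without EOW mouse 4, so that relation rested on this mouse. Hspd1 and Hspe1, which share the promoter stretch printed above, gave r = 0.705 (adjusted permutation p = 0.00987) and rho = 0.555 (adjusted permutation p = 0.0842), and r was 0.708 without 2 mice. Hsph1 with Hspa8 (r = -0.447) and Tcp1 with Cct2 (r = -0.3) did not pass. The Cct2 probe was also dim, with a mean level above only 6% of the probes tested. Groups of 4 or 5 mice were too small for values within a group.

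**Figure D4:**
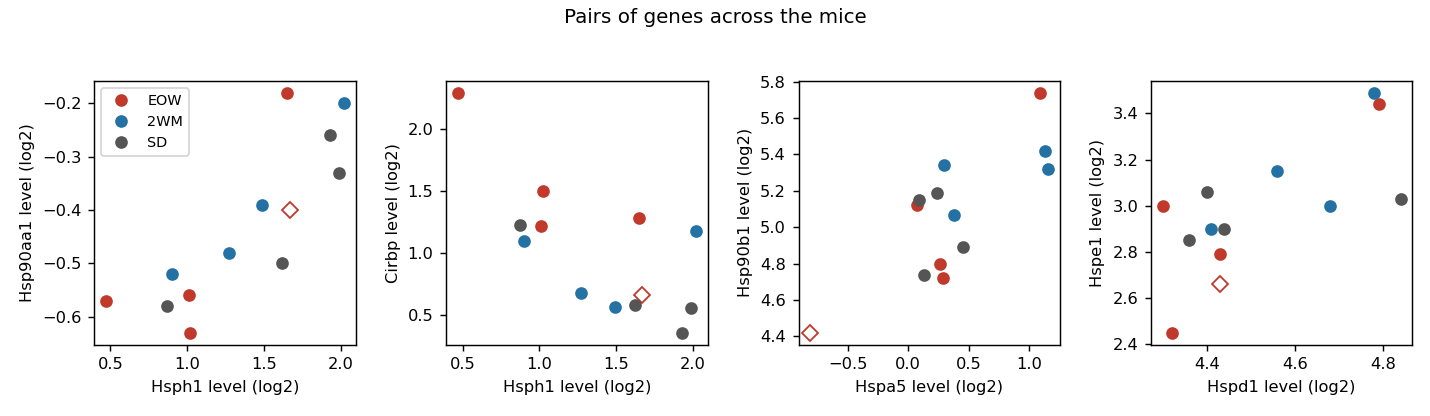
Levels of 4 pairs of genes in the 13 mice (both axes log2 scale, 0 = mean of all probes on the array), with diet group by colour and EOW mouse 4 as an open diamond. Each point is a mouse. Hsph1 and Hsp90aa1 lie along a rising line (r = 0.831), and Hsph1 and Cirbp along a falling one (r = -0.719).

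Outside these genes, 29 of the 85 were not detected on all arrays of any group, among them Dnaja1, Cct7 (6 of 16 arrays), Hspa13 and the testis-type Hspa1l. Hsf1, Hsp90ab1, Hspa1b and Dnajb11 had no probe in the annotation used and were not analysed here.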

How the data were processed

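The authors labelled liver RNA with the Illumina TotalPrep kit, hybridised it to Illumina mouse BeadArrays and exported signals with GenomeStudio 2011.1, per the submitters' processing notes. The deposited probe signals are intensity values not normalized between arrays, each with a deposited detection p-value. The authors also deposited a Z score per probe and array, which equalled the log2 signal less the array's mean over its SD (largest difference 1.1e-04). Here the signals were converted to those Z scores and multiplied by the mean array SD (1.4622), repeat arrays of a mouse were averaged, and all 13 mice were fitted in 1 model with limma 3.58.1 (R 4.3.3, statmod 1.5.0) on the 11143 probes detected at p under 0.05 on every array of a group, with Benjamini-Hochberg adjustment over all of them and 10 residual degrees of freedom. Z scores set every array to the same mean and spread, so a change common to all probes is not measured. Gene symbols came from the platform annotation, which named 23978 probes and left 1719 unnamed. The pipeline was tested on simulated data.

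The genes named were the central members of each compartment, members with an unadjusted p under 0.05 (at most 10 per comparison, read at the brightest probe) and up to 4 genes of each other list. Acnat2, Alg12, Atf4, Creld2, Dnajb4, Dnajc2, Dnajc19, Hnrnpa3, Pan2, Ppid, Syvn1 and Xbp1 were named after their values were seen. The members and lists were chosen with earlier results of these data known. Single genes were also compared by an exact two-sided permutation test over mice. Alternatives covered median centring, quantile normalization, neqc, the deposited Z scores, the detection filter, the groups fitted, a replicate block, each of the repeat arrays, an intensity trend, array weights, 1 value per gene and leaving out each mouse. The number of arrays limits the precision.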

Additional observations from a re-analysis of the deposited data

Results flagged for a closer look

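Of 96 groups of mice looked at (32 genes in 3 diets), 5 held a mouse far from the others of its group by Dixon's criterion, which flags about 1 in 20 groups by chance. In SD mice, Cct5 was -0.08 in mouse 1 and -0.51 to -0.44 in the other mice. Hspd1 was 4.79 in EOW mouse 5, against 4.3 to 4.43 in the other EOW mice, and 4.84 in SD mouse 3, against 4.36 to 4.44 in the other SD mice. SD mouse 3 was also apart for Hspa2 (-0.12, against 0.83 to 0.99) and for Bag4 (2.04, against 1.74 to 1.78).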

How the results depend on the processing

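None of the 70 probes passed an adjusted p of 0.05 under any alternative but array weights, where the dimmer Dnajc19 probe did in 2WM against SD (-0.44, adjusted p = 0.0186). Counts at an unadjusted p under 0.05 moved by more than 1.5 times as follows. EOW against SD had 8 higher, but 3 with median centring and 0 by the methods' criteria (Z ratio of 1.5 and false discovery rate of 0.30), and 5 lower, but 3 with quantile normalization, neqc, only the groups compared or an intensity trend and 0 by the criteria. 2WM against SD had 2 higher, but 0 with median centring or the trend, 1 with quantile normalization, neqc, the stricter detection filter (p under 0.01), the replicate block or the criteria (Pdia6), and 5 with no filter or only the groups compared. It had 2 lower, but 11 with median centring, 6 with array weights, 5 with only the groups compared, 4 with no filter, and 1 with neqc, 1 value per gene or the criteria (dimmer Dnajc19). EOW against 2WM had 6 higher, but 3 with 1 value per gene and 0 by the criteria, and 3 lower, but 5 with array weights and 1 by the criteria (Pdia6). The split of higher to lower calls was 3 to 7 with median centring in EOW against SD, 0 to 11 in 2WM against SD and 8 to 2 in EOW against 2WM.

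Leaving out each mouse gave 4 to 9 higher and 2 to 7 lower in EOW against SD (4 higher without SD mouse 2 or EOW mouse 1, 5 without SD mouse 3; 3 lower without SD mouse 1, SD mouse 2 or EOW mouse 1, 2 without SD mouse 3). It gave 0 to 3 higher and 1 to 3 lower in 2WM against SD (0 higher without 2WM mouse 3, 1 without SD mouse 2 or 3 or 2WM mouse 1 or 2; 1 lower without 2WM mouse 2, 3 or 4). It gave 2 to 7 higher and 2 to 7 lower in EOW against 2WM (2 higher without 2WM mouse 3, 3 without EOW mouse 4; 7 lower without EOW mouse 3). Compartment medians ranged over -0.042 to 0.05, -0.034 to 0.047 and -0.039 to 0.029 in the cytosol for EOW against SD, 2WM against SD and EOW against 2WM, over -0.23 to -0.018, -0.007 to 0.158 and -0.238 to -0.055 in the ER, and over -0.139 to 0.01, 0.027 to 0.087 and -0.054 to 0.086 in the mitochondria. Under median centring, the cytosolic median was -0.089 in EOW mice and -0.117 in 2WM mice, each against SD, and the mitochondrial median was -0.181 in 2WM against SD.

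For the 19 comparisons of single genes with an unadjusted p under 0.05, 472 of 475 values kept their sign and their side of an adjusted p of 0.05. The 3 others turned with median centring: Hspa9 to -0.03 in EOW mice and -0.09 in 2WM mice, each against SD, and Cct8 to -0.03 in 2WM against SD. Genes with a larger p that turned are given beside their values above and are not in this count. None of the 19 passed the adjusted limit in the main fit or in any alternative, so keeping their side of it says little. With median centring in EOW against SD, the unadjusted p (limma) rose from 0.014 to 0.603 for Cct8. For Bag3 it fell from 0.0282 to 0.00839. The cause of these changes was not tested. Same-numbered mice did not deviate together (correlations of -0.381 to 0.328), so the numbers do not pair them. With the replicate block the counts of higher and lower probes were 8 and 6, 1 and 2, and 6 and 4 in the 3 comparisons.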

Other observations

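Gene groups outside protein folding also held genes with an unadjusted p under 0.05, and none passed the adjusted limit. Rbm3, a cold-inducible RNA-binding protein that rises when body temperature falls, had levels of 3.81, 3.19, 2.93, 4.16 and 4.19 in EOW mice, 2.97, 3.03, 2.63 and 2.47 in 2WM mice and 3.03, 2.5, 1.89 and 2.93 in SD mice. It gave 1.07 ± 0.292 in EOW against SD (unadjusted p = 0.00292, adjusted p = 0.195, limma) and 0.88 ± 0.292 in EOW against 2WM, and its relative Cirbp 0.71 ± 0.277 in EOW against SD. EOW mice 1, 4 and 5 held the 3 highest Rbm3 levels of all 13 mice.

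Of 16 clock genes listed, 11 were tested. Per1, a period gene that glucocorticoids also induce, had levels of 2.55, 1.6, 1.09, 2.37 and 2.88 in EOW mice, -0.15, 0.32, -0.42 and 0.26 in 2WM mice and -0.15, 0.66, -0.09 and 1.59 in SD mice. EOW mice 1, 4 and 5 were again the 3 highest, and SD mouse 4 lay within the EOW range. Its log2 fold change was 1.59 ± 0.402 in EOW against SD (adjusted p = 0.176, limma) and 2.09 ± 0.402 in EOW against 2WM (adjusted p = 0.23). The 7 tested immediate early genes (of 12 listed) were all positive in EOW against 2WM (median 0.533), 6 of 7 were negative in 2WM against SD (median -0.498), and 4 were positive and 3 negative in EOW against SD (median 0.029). The time of day at which each mouse was killed is not given in the sources used here.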
